A study of Homo sapiens with 31 samples.

Results

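The muscleblind circRNAs are the circular RNAs assigned to MBNL1, MBNL2 and MBNL3, the 3 human genes of the muscleblind family. They were chosen by the transcript named in each identified structure, and 2 structures out of 55371 met the rule. Both came from MBNL2 and together they held 5 of the 1029205 back-splice reads. The rule selected 0 structures of MBNL1 and 0 of MBNL3, which were not analysed here, and no statement about circles of either gene is made from this.

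Muscleblind proteins are zinc finger RNA-binding proteins that control alternative splicing, chiefly in muscle, brain and eye, and bind short motifs built around YGCY. They are best known from myotonic dystrophy, where expanded CUG or CCUG repeats sequester them. The muscleblind gene of the fly gives an abundant circular RNA from its second exon, flanked by introns that carry muscleblind binding sites, which made the family an early model of a splicing factor tied to circRNA formation. A circRNA is recognised in RNA sequencing by reads that cross a back-splice, the joining of the end of an exon to the start of the same exon or of an earlier one.

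The cells were of H9, an established human embryonic stem cell line, differentiated towards 3D retinal tissue. Untreated cells were harvested at day 0, day 45 and day 90, and parallel cultures given recombinant human IGF-1 (insulin-like growth factor 1; 5 ng/ml to day 37, then 10 ng/ml) at day 45 and day 90, with 3 libraries in each of these 5 groups. Every group derives from the same line, and cells were taken from whole cultures without selecting retinal tissue, so fewer cells of a type and less RNA per cell cannot be told apart. The labels describe cultures plated in triplicate from 1 line, so p-values measure the spread between these cultures only. The 15 ribosomal RNA-depleted libraries held between 14992 and 108946 back-splice reads. Values are given as back-splice reads per 1000000 sequenced reads (RPM). RNA integrity, by the labels, was highest at day 0 and lower at both later days. Its part in the results below was not tested.

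The first structure, circMBNL2:E2-E2, was exon 2 of MBNL2 joined to itself. It lies on the plus strand at chr13:97927886-97928663 (hg19) and is 778 bases long. The exon holds 604 noncoding bases of the 5′ UTR followed by 174 coding bases, with the annotated start codon at base 605. It belongs to the MANE Select transcript, and both of its ends occur in 8 of the 11 annotated MBNL2 transcripts. Introns of 53100 and 57866 bases flank it. Single-exon structures made up 4.53% of all those identified (2511 structures), with a median length of 250 bases, and 15.97% of them were at least as long as this exon.

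The second structure, circMBNL2:E8-E6, joined the end of exon 8 to the start of exon 6 of an MBNL2 transcript with 9 exons. It spans 9072 bases at chr13:98009736-98018807 (hg19, plus strand), and its 3 exons of 154, 36 and 95 bases would give a circle of 285 bases, if the introns between them are removed. All 285 bases are coding and their number is divisible by 3. Of the 3 exons, 2 are in the MANE Select transcript, the exception being exon 8, and both junction ends occur in 4 of the 11 transcripts. The flanking introns measure 10414 and 24768 bases. The inner exons were inferred from the annotation, since a read across the back-splice shows the joined ends only.

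**Figure D1:**
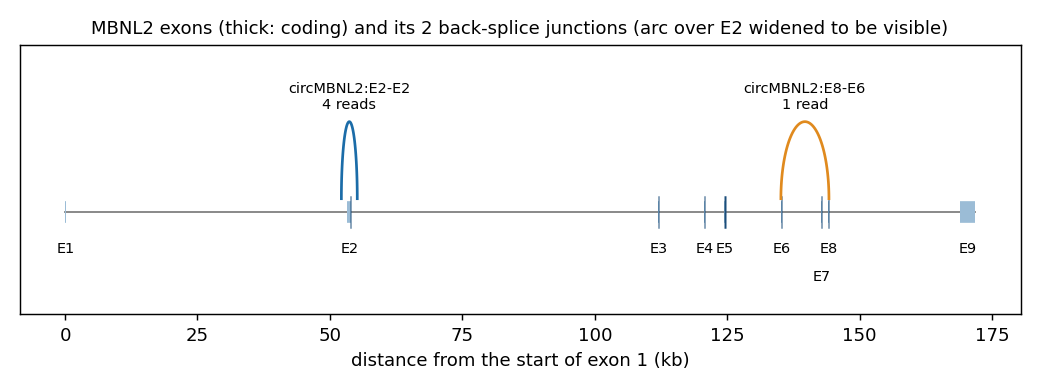
Exons of the MBNL2 transcript with 9 exons along the distance from the start of exon 1 in kb, with thick dark blocks for coding and pale blocks for noncoding parts; each arc joins the ends of 1 back-splice, and the arc over exon 2 is widened to be visible. The 4 reads of circMBNL2:E2-E2 and the 1 read of circMBNL2:E8-E6 came from separate, non-overlapping parts of the gene.

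The junction sequences identify the structures, and are shown because these 30 bases are what distinguishes each from annotated linear MBNL2 RNA. The paper states that rare trans-splicing can also produce such junctions. Both structures rest on back-splice reads alone, and their circularity was not tested. They are written from the GRCh37 genome, 5′ to 3′ on the plus strand, with the last 15 bases of the donor exon in capitals and the first 15 bases of the acceptor exon in lower case. Neither of them occurred in any of 254413 annotated linear transcripts.
circMBNL2:E2-E2: TTTGATTCCCTAAAGgtttatcatttaaaa
circMBNL2:E8-E6: GCCACAGCCAATCAGgcctttccccctggt

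The introns at the ends of both structures had the usual AG before the acceptor exon and GT after the donor exon. To show how often the muscleblind motif occurs beside these exons, the letters TGCT or TGCC with a leading T, and CGCT or CGCC with a leading C, were searched on the sense strand only in the 250 intronic bases nearest each end, overlapping matches included. Before exon 2 there were 4 matches, and 26.5% of the 30090 distinct windows before acceptor exons of all circRNAs held at least as many. After exon 2 there was 1 match, reached by 88.6% of 31923 windows after donor exons. Before exon 6 there were 7 matches, a number reached by 4.13% of windows, and after exon 8 there were 2, reached by 66.2%. The window before exon 6 thus lay towards the upper end of the distribution and the other 3 windows did not. These matches are letters in the sequence and no binding was measured. The nearest 100 intronic bases on either side are printed here with the matches in capitals, at chr13:97927786-97927885 and chr13:97928664-97928763 around exon 2, and at chr13:98009636-98009735 and chr13:98018808-98018907 around exons 6 to 8.
before exon 2: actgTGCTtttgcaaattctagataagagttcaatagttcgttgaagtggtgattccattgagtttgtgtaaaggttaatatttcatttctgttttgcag
after exon 2: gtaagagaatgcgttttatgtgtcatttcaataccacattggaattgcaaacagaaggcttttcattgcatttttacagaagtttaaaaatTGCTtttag
before exon 6: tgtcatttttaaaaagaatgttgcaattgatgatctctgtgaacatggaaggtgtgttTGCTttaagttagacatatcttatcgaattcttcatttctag
after exon 8: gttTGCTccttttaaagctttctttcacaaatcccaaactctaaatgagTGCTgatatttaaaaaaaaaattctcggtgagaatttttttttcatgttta

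The 5 reads of MBNL2 all came from day 45. For circMBNL2:E2-E2, each of the 3 untreated day 45 libraries had 1 read (0.00903, 0.00723 and 0.00682 RPM in replicates 1, 2 and 3), and IGF-1-treated day 45 replicate 3 had 1 read (0.00713 RPM). The other 11 libraries had 0 reads of it. For circMBNL2:E8-E6, IGF-1-treated day 45 replicate 2 had the only read (0.00747 RPM). No library had more than 1 MBNL2 read.

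**Figure D2:**
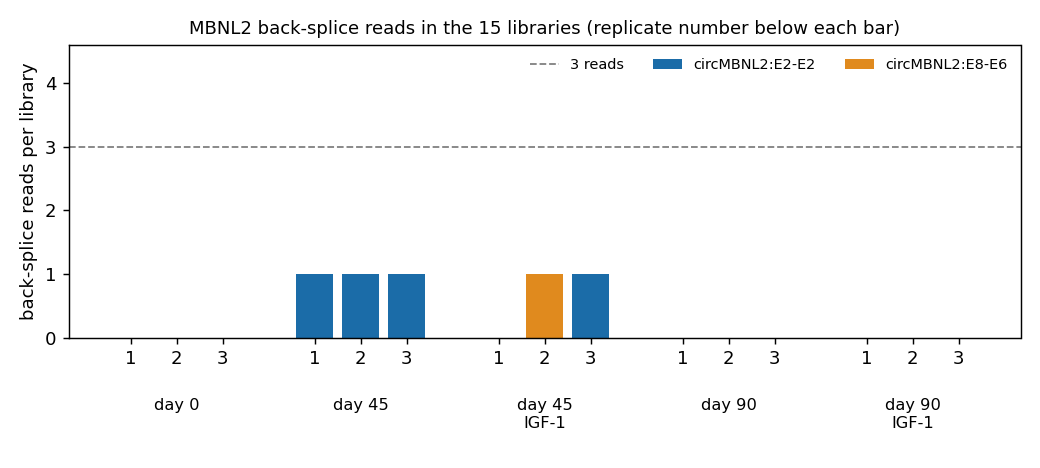
MBNL2 back-splice reads in each of the 15 libraries (y axis, reads per library), by group and replicate number (x axis) and coloured by structure; the dashed line is at 3 reads, the number that a count of 0 still allows. All 5 reads are in day 45 libraries and every bar is below the line.

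Summed over both structures, untreated day 45 cultures had 0.00769 ± 0.00117 RPM (SD, n = 3), and the 3 reads pooled gave 0.00758 RPM with an exact Poisson 95% interval from 0.00156 to 0.0222 RPM. IGF-1-treated day 45 cultures had 0.00487 ± 0.00422 RPM (SD, n = 3), and their 2 reads pooled gave 0.00527 RPM with an interval from 0.000638 to 0.019 RPM. The small SD of the untreated group reflects that each library had the same single read. At 0 reads, the 3 counts over the group that this allows come to 0.00737 RPM at day 0, 0.00697 RPM at day 90 and 0.00692 RPM at day 90 with IGF-1. Day 45 therefore lay at the limit that the groups without a read still allow, and no fold change is given. Intervals and limits cover counting error only.

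The question of the time course was whether circRNA levels changed as the stem cells differentiated. For MBNL2, day 45 was above day 0 and above day 90 in 3 of 3 libraries, with a difference of 0.00769 RPM in each case. The exact two-sided permutation test gave p = 0.1 for both, the smallest value that 3 libraries against 3 allow, and p = 0.15 after Benjamini-Hochberg adjustment over the 3 comparisons in which any library had a read. The question of the treatment was whether IGF-1 altered circRNA levels. At day 45 the treated mean was below the untreated mean by 0.00282 RPM (exact permutation p = 0.5, adjusted 0.5). With libraries of the same number paired, the treated library was lower in 1 of 3 pairs and higher in 2 (exact paired permutation p = 1.0, where 3 pairs cannot go below 0.25). In those 2 pairs both libraries had 1 read, so their RPM differed only through the number of sequenced reads. At day 90 both groups had 0 reads. With 3 libraries a group these permutation tests could not pass 0.05 whatever the depth, so they give no evidence that the levels were equal.

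As a share of all back-splice reads, a scale that does not rise with the number of circRNA reads in a library, MBNL2 made up 9.18, 11.1 and 11.2 reads per 1000000 back-splice reads in the 3 untreated day 45 libraries (10.5 ± 1.15, SD, n = 3) and 0 at day 0 and day 90. The 6 untreated libraries of the later days had a mean of 5.25 ± 5.80 (SD), against 0 in the 3 libraries of day 0 (exact two-sided permutation p = 0.476, with 0.0119 the smallest value this design allows). The groups overlapped, since the day 90 libraries were at 0 like those of day 0. The day 0 libraries together held 48037 back-splice reads, against 287990 at untreated day 45 and 210471 at day 90. At these totals, 0 reads at day 0 or day 90 still allowed a share like that of day 45, so no change in share is read from them.

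Neither structure, nor the MBNL2 total, reached the 10 summed counts required for the count model, a filter that left 12498 circRNAs and 4933 gene totals. With no filter, edgeR's quasi-likelihood test called 0 of the 2 structures in any comparison at an adjusted p of 0.05. Between day 0 and day 45, where 5.74% of all 55371 circRNAs were called, the lowest unadjusted p of a member was 0.120 (adjusted 0.617, Benjamini-Hochberg, edgeR). Between day 45 and day 90 it was 0.113 (adjusted 0.774 in edgeR), with 0.00903% of circRNAs called, and between untreated and treated day 45 cultures it was 0.366 (adjusted 0.791 in edgeR), with 0.00181% called. The MBNL2 total between day 0 and day 45 had an unadjusted p of 0.122 and an adjusted p of 0.240 without the filter (edgeR), with 35.9% of 8095 gene totals called. Even Fisher's exact test on the summed counts, without a filter, gave an unadjusted p of 0.120 between day 0 and day 45. The comparisons of day 0 with day 90, and of IGF-1 at day 90, set 0 reads against 0. At these counts no call was possible, so the tests give no evidence that levels were equal.

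Few reads were common among circRNAs. Of all circRNAs, 64.7% had at most 4 reads and 36.1% had 1 read, with a median of 2. How often circRNAs had their reads placed like those of circMBNL2:E2-E2 was counted after that placement was seen, as a description only. The counts include circMBNL2:E2-E2 itself. Among the 3006 circRNAs with exactly 4 reads, 865 had them in 4 libraries, 22 (0.732%) had a read in all 3 untreated day 45 libraries, and 11 of these 22 had none in any day 0 or day 90 library. Having no read at day 0 was usual, being the case for 81.8% of circRNAs with 4 reads. Having none at day 0 or at either day 90 group was the case for 14.4%. Of the 8095 genes with a back-splice read, 31.2% had at most 5, as MBNL2 did, and the median gene had 19 reads over 3 circRNAs.

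**Figure D3:**
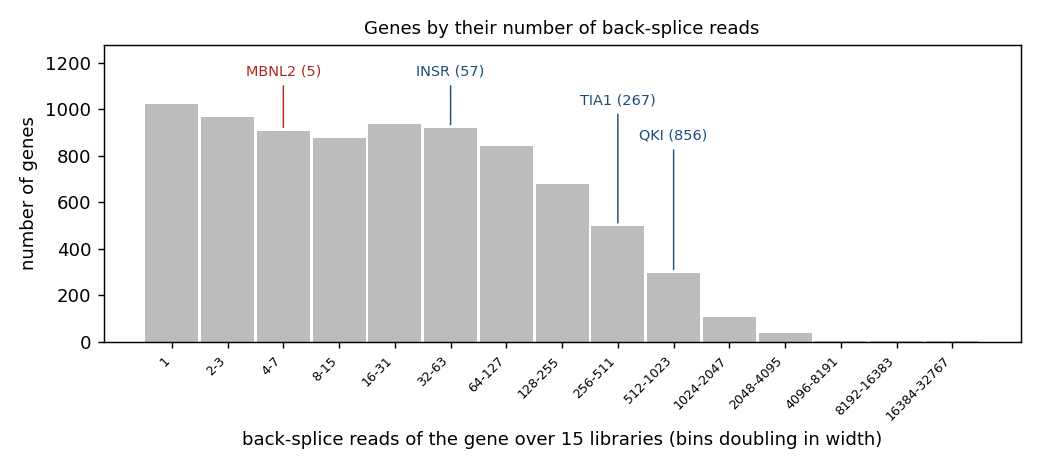
Number of genes (y axis) by their summed back-splice reads over the 15 libraries (x axis, bins that double in width), with the position of MBNL2 (5 reads), the muscleblind target INSR (57) and the splicing regulators TIA1 (267) and QKI (856) marked. MBNL2 lies below the median of 19 reads.

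Of a list of 31 other splicing regulators, 21 had reads and 13 reached the filter that MBNL2 did not reach. The 4 with the most reads were QKI (856), PTBP3 (599), KHDRBS1 (342) and TIA1 (267). QKI is a STAR-family protein that promotes the formation of many circRNAs. Its back-splice reads rose from 0.0467 ± 0.00405 RPM at day 0 to 0.617 ± 0.345 RPM at untreated day 45 (SD). This was a log2 change of 3.69 (SE 0.48, n = 3 and 3, adjusted p = 4.51e-13 in edgeR's quasi-likelihood test). TIA1, which binds U-rich introns, had a log2 change of 2.58 (SE 0.54, adjusted p = 8.91e-06 in edgeR). ELAVL3 and KHDRBS2, both among the 13 tested, had 0 RPM in every day 0 library, so the size of their changes was not measured. Of the 13 regulators tested, the back-splice totals of 10 rose and 0 fell between day 0 and day 45, with a median log2 change of 3.08. This stood beside 63.8% of 4933 gene totals called and a median of 2.81 over all of them. The call depended on the scale: relative to back-splice totals with TMM factors, the median of all genes was 0.81 and of the list 1.22, with ELAVL2 and QKI alone called, and with DESeq2's size factors these medians were 0.52 and 0.94, with QKI alone called.

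The factors known to promote or hinder circRNA formation were listed too, 12 genes in all, of which 8 had reads and 5 were tested. Between day 0 and day 45 all 5 tested were called higher per 1000000 sequenced reads, beside the 63.8% of all gene totals called, and their median log2 change was 3.26 against 2.81 over all gene totals. They were QKI, the RNA-editing enzymes ADAR and ADARB1, the RNA helicase DHX9 and the double-stranded RNA-binding factor ILF2, and QKI alone was called with TMM factors or DESeq2's size factors. Without day 0 replicate 1, day 0 replicate 2 or day 45 replicate 1, the number called was 3 of 5 in each case, and DESeq2's Wald test also called 3. The call of ADAR was lost in those fits and also without day 0 replicate 3, without the filter, and with a term for sequencing quality. ADARB1 had the second highest number of reads (812), ILF2 had 139, DHX9 26 and ADAR 14. DHX9 was the median gene. ADAR had 0 RPM in every day 0 library, and DHX9 had a day 0 mean of 0.00238 RPM. Both reached the filter through the later groups, so the size of their changes was poorly measured. Among genes with at least 50 summed counts, the medians were 2.95 for 3 listed genes and 2.90 for all. The reads are back-splice reads of the genes and say nothing of the level of their proteins.

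Genes whose splicing muscleblind proteins are known to control were also listed, 17 in all, of which 8 had reads and 5 were tested. Of these 5, 4 were called higher between day 0 and day 45 and 0 lower, with a median log2 change of 3.93. This stood beside 63.8% of all gene totals called and a median of 2.81 over them. The median gene was DMD (16 reads, SE 1.87, adjusted p = 0.0546 in edgeR), which was not called. DMD and SYNE1, both among the 5, had 0 RPM in every day 0 library. They reached the filter through the later groups alone, so the size of their changes was not measured. Among genes with at least 50 summed counts, the medians were 3.32 for 3 listed genes and 2.90 for all. With TMM factors the medians were 3.14 for the 5 genes and 0.81 for all. TANC2, a postsynaptic scaffold protein, had 290 reads. FOXP1, a forkhead transcription factor with a stem cell-specific splice form, had 128 and a log2 change of 3.32 (SE 0.82, adjusted p = 0.000189 in edgeR), and the insulin receptor INSR had 57 and a log2 change of 2.22 (SE 1.00, adjusted p = 0.0422 in edgeR). The call of INSR was lost without the filter, with a term for sequencing quality, with DESeq2's Wald test, and without day 0 replicate 1, day 0 replicate 2 or day 45 replicate 2. SYNE1, which links the nucleus to the cytoskeleton, had 42 reads and was also called. TANC2 alone of the 5 was called with TMM factors or DESeq2's size factors. Between day 45 and day 90, 0 genes of the 3 lists were called (0.385% of gene totals called), and the same held for IGF-1 at day 45 (0.0203%) and at day 90 (0.0203%). At an unadjusted p of 0.05 in edgeR, 2 regulators and 2 formation factors passed between day 45 and day 90, 1 regulator and 1 muscleblind target with IGF-1 at day 45, and 1 regulator with IGF-1 at day 90. DESeq2's Wald test also called 0, while Fisher's exact test on summed counts, which leaves out the spread between libraries, called 4 regulators and 4 formation factors lower at day 90 and TANC2 lower with IGF-1 at day 45. With a term for the replicate number over all 5 groups, the number of all gene totals that edgeR called with IGF-1 at day 45 went from 1 to 0. Listed genes without a read were not analysed here.

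The labelled cell types could be checked through circRNAs only in part. Back-splice reads of a list of 14 pluripotency genes summed to 0.0594 ± 0.0114 RPM (SD, n = 3) at day 0 and to 0.00241 ± 0.00417 RPM at untreated day 45, and 30 of its 41 reads were of TERF1, a telomere-binding protein that other cells also use. Of 18 retinal genes, 4 had reads, 13 in all, with 0 at day 0. Lists of muscle and of mesenchyme genes had 97 reads, 79 of them of RYR1, and 28 reads. Cell type composition can therefore not be read from these counts, and its part in the MBNL2 reads was not tested.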

How the data were processed

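Total RNA was depleted of ribosomal RNA and sequenced on paired ends by the authors, who identified back-splices with PTESFinder against GENCODE 19 exons on hg19. The deposited table gives, per structure, the libraries with reads and their counts, packed in 1 text field. These deposited values are raw counts per library, not normalized. Structures were assigned to genes by transcript, or by shared exon ends, with the GENCODE 44 lift to GRCh37, which has the coordinates of hg19. RPM used the numbers of sequenced reads that the study lists; 1 day 90 library is listed on 2 lines and another not at all, so their mean was used for both. Counts were tested with edgeR 4.0.16 (quasi-likelihood, sequenced reads as library sizes, at least 10 summed counts, all 5 groups, Benjamini-Hochberg) in R 4.3.3, and also with DESeq2 1.42.0 and Fisher's exact test. The test was checked on simulated counts, with changes placed only in circRNAs of many reads. That check does not cover counts as low as those of MBNL2. Single values were compared with exact permutation tests in scipy 1.17.1, chosen for MBNL2 after its counts were seen. Same-numbered untreated and IGF-1-treated day 45 libraries deviated together over gene totals in 3 of 3 pairs (correlation 0.202 to 0.386), so these were also compared as pairs; the pairing comes from the data, not the labels. Members with at least 100 counts were to be given in every library, and lower ones by number and total; both members fell below 10 counts and were given in full instead. Of each list the 4 genes with the most reads were named; the ranking of genes by likeness to MBNL2 across libraries is not reported here. ADAR, DMD, ELAVL2, ELAVL3, KHDRBS2 and TERF1 were named after their values were seen. The members and lists were chosen with earlier results of these data known. The amplicon libraries of another gene were not used.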

Additional observations from a re-analysis of the deposited data

How the results depend on the processing

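With 5 reads in all, MBNL2 limits what any setting can show. Over 318 alternatives (other library sizes, filters, tests, the day 90 read numbers in either order, and each library left out in turn) the results for the MBNL structures, the MBNL2 total and its share stayed on the side of the threshold reported above. A member could be tested in only 50 of the fits across all features, the lowest adjusted p being 0.222 (Fisher's exact test without a filter, day 0 against day 45). In the other fits a result of 0 calls was fixed in advance, and some of the 50 set 0 MBNL2 reads against 0. Outside the comparison of untreated with IGF-1-treated day 45, 3 of 27 same-numbered pairs had a correlation of deviations over 0.1, and there the main results did not read the numbers as pairs. The replicate block is an alternative that matches libraries by number all the same, in edgeR through a term over all 5 groups. With the replicate block, the share at day 45 minus day 0 was 10.5 per 1000000 back-splice reads (exact paired permutation p = 0.25, the smallest that 3 pairs allow), and the MBNL2 total without a filter had an adjusted p of 0.486 between day 0 and day 45 (edgeR). In the same comparison the block ended the calls of ADAR and INSR. With libraries paired, the IGF-1 difference of MBNL2 at day 45 was -0.00282 RPM (exact permutation p = 1.0). Combining no filter with the block, TMM factors, DESeq2 or Fisher's test was chosen after seeing the data, as were assigning structures by transcript alone and the paired test of IGF-1. Counting structures by exon ends added 0 members. The share over circRNAs with at least 10 counts and the share of the leading structure gave no value to compare, since no member reached 10 counts and no group but day 45 had a read.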
